A study of Mus musculus with 8 samples.

Results

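The constitutive proteasome subunits were followed here as 39 genes of the 53697 listed in the count table. They were taken by their names, as protein-coding genes called Psma, Psmb, Psmc, Psmd or Psme followed by a number, without the immunoproteasome genes Psmb8, Psmb9 and Psmb10, and with at least 10 counts in 2 or more libraries. Of the 43 genes with such a name, those 3 were left out by name, and Psma8, the testis paralog of the alpha ring, was left out by its counts, which reached at most 3 in a library. All 39 genes passed the filter on low counts and were tested.

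The libraries came from mammary tumors of untreated MMTV-PyMT mice, in which the mouse mammary tumor virus promoter drives the polyoma middle T oncogene in the mammary epithelium. The mice were in the C57BL/6 background, and their ages were not given. Mice 1 and 2 were PyMT-Dll1GFP mice, with a knock-in reporter for the Notch ligand Dll1, and mice 3 and 4 were PyMT-Dll1mCh mice, with an mCherry reporter carried on a bacterial artificial chromosome (BAC). Cells bearing CD45, CD31 or TER119 were removed in the sort, and the remaining cells were separated by the reporter, so that each of the 4 mice gave 1 Dll1+ and 1 Dll1- library of total RNA. Replicates were therefore separate mice, 2 for each reporter. Total counts per library ran from 27301396 to 123907626, the deepest being the Dll1- library of mouse 3. Dll1 itself lay between 7.61 and 50.3 CPM in Dll1- cells and between 87.5 and 250.2 CPM in Dll1+ cells, and it was higher in the Dll1+ library of every mouse. CPM are counts scaled to a library of 1000000 counts, after TMM scaling. The epithelial markers Epcam, Krt8, Krt18, Cdh1 and Krt19 summed to 4742 to 8146 CPM over the 8 libraries.

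The proteasome is the protease that destroys proteins tagged with ubiquitin, among them cyclins and the inhibitor that holds NF-κB in the cytoplasm. Its core is a barrel with outer rings of alpha subunits, which gate the entrance, and inner rings of beta subunits, which hold the proteolytic sites. A regulatory particle binds the end of the barrel: its lid and base receive the tagged protein, remove the ubiquitin and unfold the chain with a ring of ATPases, while alternative activator rings can take its place. The subunits are needed in matched amounts, and their genes are known to be driven together by Nfe2l1, a transcription factor that binds antioxidant response elements as a partner of small Maf proteins.

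Short stretches of promoter are shown first, since the genes were followed as a group with a known common regulator. RefSeq promoter windows of GRCm38.p6, from 250 bases before to 50 bases after each annotated start, were at hand for 33 of the 39 genes, and a gene with several starts was counted as holding a motif when any of its windows held it. Motifs were searched on both strands. The core of the antioxidant response element, TGACNNNGC, stood in windows of 6 genes (18.2%), against 14.0% of the 27025 genes with a window. The stretches below carry that motif in capitals, each read on the strand where the motif stands, with up to 10 bases on either side:
Psmd9: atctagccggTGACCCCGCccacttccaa
Psme4: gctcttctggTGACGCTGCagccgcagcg
Psmb6: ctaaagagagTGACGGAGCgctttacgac
Psmd12: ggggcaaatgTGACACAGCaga
Psmc6: gagcaatgccTGACTTAGCtactggctgg
Psmb5: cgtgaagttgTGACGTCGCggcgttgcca
The stretches lie at chr5:123228149-123228177 (Psmd9), chr11:30771758-30771786 (Psme4), chr11:70525338-70525366 (Psmb6), chr11:107479278-107479299 (Psmd12), chr14:45329587-45329615 (Psmc6) and chr14:54618024-54618052 (Psmb5). The motif begins 31 bases before the start of Psmd9, 9 bases before that of Psmb6 and 47 bases before that of Psmb5. In Psme4, Psmd12 and Psmc6 it stands on the opposite strand. There its edge farthest upstream lies 7, 247 and 227 bases before the start, and the Psme4 match runs across the start.

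The form TGACTCAGC, a single case of the first motif, was found in 0 of 33 genes, against 0.503% of all genes. The CCAAT box stood in 13 of 33 (39.4%), against 41.1% of all. Of the 2 E2F motifs searched, TTTGGCGC was found in 0 of 33 (0.585% of all genes) and TTTCCCGC in 2 of 33, Psmc2 and Psmc4 (6.06%, against 1.24% of all). Both are ATPase genes, and their stretches, with the E2F motif in capitals, read:
Psmc2: acacagcaccTTTCCCGCttccgctggt
Psmc4: gggctaagagTTTCCCGCccttcctgtt
That of Psmc2 lies at chr5:21786751-21786778, after the second of its annotated starts, and that of Psmc4 at chr7:28050152-28050179. These matches describe letters in the windows only, and a gene without one may hold it elsewhere.

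The level of each subunit mRNA was first compared per length, as CPM per kb of the longest protein-coding transcript. Psmb6, the beta subunit with caspase-like activity, was the highest on this length at 184 ± 38.7 CPM per kb (mean ± SD, n = 8 libraries). Its catalytic partners Psmb7, with trypsin-like activity, and Psmb5, with chymotrypsin-like activity, stood at 96.7 ± 28.1 and 69.2 ± 18.5 CPM per kb. The 6 ATPases of the base lay within 1.85-fold of each other, from Psmc6 at 47.2 to Psmc3 at 87.5 CPM per kb. The 7 beta subunits other than Psmb11 spanned 2.65-fold and the 8 lid subunits 2.83-fold, while the alpha ring spanned 6.49-fold because Psma3 (21.3 CPM per kb) lay well under Psma7 (138 CPM per kb). The 3 base chaperones, Psmd5, Psmd9 and Psmd10, which help the ATPase ring to assemble and leave it when it is complete, had the lowest levels of all but 1 gene, between 11.7 and 14.5 CPM per kb. The exception was Psmb11, the catalytic beta subunit of thymic epithelium, at 0.156 ± 0.0570 CPM per kb and with 238 counts over all 8 libraries. With the union of exons as length Psmb6 stood at 78.3 CPM per kb, behind Psma6 (89.0), Psmb2 and Psmc5, while the 4 lowest genes were again Psmb11 and the base chaperones. Transcript length was taken from the annotation, and the length actually transcribed in these cells was not measured.

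**Figure D1:**
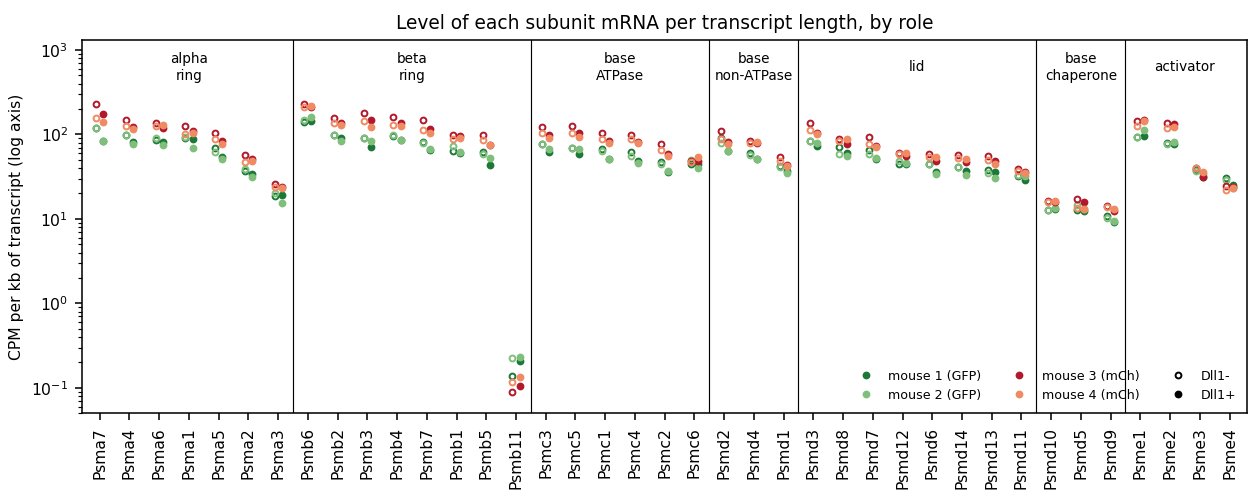
Level of each of the 39 subunit mRNAs in CPM per kb of transcript (log axis), with 1 point for each of the 8 libraries, grouped by role. Open points are Dll1- and filled points Dll1+ libraries; Psmb6 is at the top and Psmb11 far under all others, and the points of mice 3 and 4 lie above those of mice 1 and 2 for most genes.

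The question of the sort was how Dll1+ cells differ from Dll1- cells of the same tumor. Over the 4 mice, 12 of the 39 subunit mRNAs were lower in Dll1+ cells (edgeR quasi-likelihood test with the mouse as a block, adjusted p under 0.05), while 7.04% of the 18322 genes tested were lower. None was higher, with 0 also at an unadjusted p under 0.05 and 0 by DESeq2, while 6.98% of all genes were higher. The 12 were Psma4, Psma5 and Psma7 of the alpha ring, Psmb3, Psmb5 and Psmb7 of the beta ring, the ATPases Psmc1, Psmc2, Psmc3 and Psmc4, and the base scaffolds Psmd1 and Psmd2. The differences were small. Over all 39 genes the median log2 fold change was -0.16, a change of -10.3%, against a median of -0.001 for all genes tested. Of the 39 estimates 35 were negative, and 22 were under an unadjusted p of 0.05. Of all 18322 genes, 9184 had negative estimates, and 5936 were under that p in either direction. Less RNA per cell and fewer cells with high levels cannot be told apart in such bulk libraries.

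The fall was seen within each mouse. The median log2 difference of the 39 genes, Dll1+ minus Dll1-, was -0.21, -0.19, -0.21 and -0.06 in mice 1 to 4. The median over all tested genes was -0.02, 0.01, 0.00 and 0.04 in the same order. In mice 1 to 4, 33, 34, 37 and 25 of the 39 genes were lower in Dll1+ cells. Of all tested genes, 52.4%, 49.1%, 49.7% and 45.0% were lower in the same order. Mouse 4 thus had the same direction and the smallest difference. Between single genes, 24 were lower in Dll1+ cells of all 4 mice, as were 19.9% of all genes, and 2, Psme1 and Psmb11, were higher in all 4, as were 21.4% of all genes. All 12 genes that passed the test were lower in 4 of 4 mice. They were picked by a test on these same mice, so this is no separate evidence. Added up, the 39 mRNAs took 3856, 3794, 5593 and 4829 CPM in Dll1- cells of mice 1 to 4, and 3309, 3315, 4750 and 4609 CPM in Dll1+ cells. The change in this sum was -14.2%, -12.6%, -15.1% and -4.56% in mice 1 to 4.

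**Figure D2:**
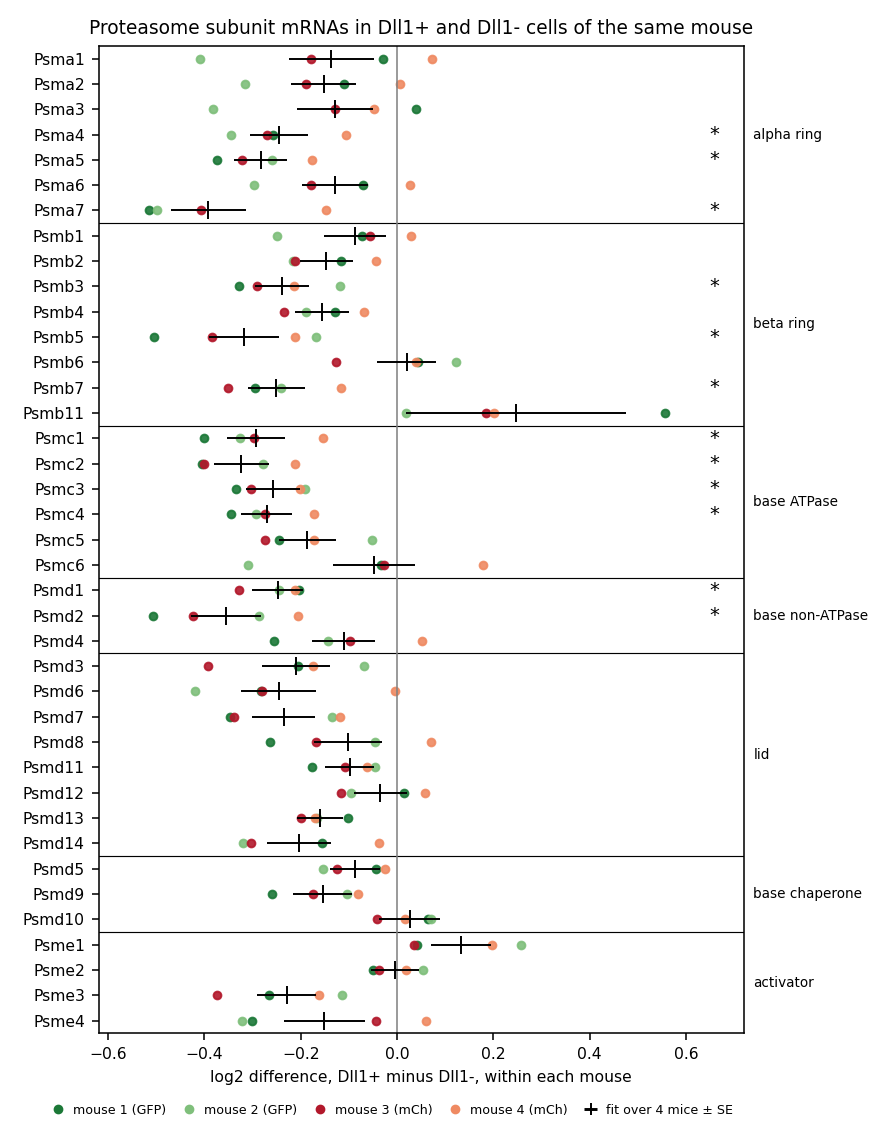
Log2 level in the Dll1+ library minus that in the Dll1- library of each mouse (coloured points) and the fitted log2 fold change over the 4 mice (black bar, ± SE) for each of the 39 subunit mRNAs, grouped by role. Asterisks mark the 12 genes past the adjusted threshold; nearly all points of the core rings and the base lie left of 0, and those of Psmb6, Psme1, Psme2 and Psmd10 lie around or right of it.

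In the outer ring, 3 of the 7 alpha subunits fell, and the other 4 had negative estimates. Psma7 had the lowest estimate of all 39 genes. It read 138, 136, 268 and 180.2 CPM in Dll1- cells of mice 1 to 4 and 96.4, 96.3, 202 and 163 CPM in Dll1+ cells. The Dll1+ library was lower in each mouse, although the Dll1+ libraries of mice 3 and 4 lay above the Dll1- libraries of mice 1 and 2. Its log2 fold change was -0.39 ± 0.08 (SE; adjusted p = 0.0296). Psma5, the alpha subunit with the lowest p, read 86.1, 76.4, 129 and 108 CPM in Dll1- and 66.4, 63.8, 103 and 95.7 CPM in Dll1+ cells, and it changed by -0.28 ± 0.05 on the log2 scale (adjusted p = 0.0274). Psma4 changed by -0.25 ± 0.06 (adjusted p = 0.0476). Psma1, Psma2, Psma3 and Psma6 lay between -0.15 and -0.13 and did not pass the test, and each was lower in Dll1+ cells of 3 of 4 mice.

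In the inner ring the 3 proteolytic subunits did not move alike. Psmb5, the chymotrypsin-like subunit and the main target of the drug bortezomib, had 55.9, 52.5, 89.1 and 78.2 CPM in Dll1- cells of mice 1 to 4 and 39.4, 46.7, 68.2 and 67.5 CPM in Dll1+ cells, lower in all 4 mice. It fell by 19.8% (log2 fold change -0.32 ± 0.07, adjusted p = 0.0407). Psmb7, the trypsin-like subunit, had 93.6, 92.1, 169.6 and 132 CPM in Dll1- and 76.3, 77.9, 133 and 122 CPM in Dll1+ cells, a change of -0.25 ± 0.06 (adjusted p = 0.0438). Psmb7 shares its locus with Nek6 on the opposite strand, and how strand entered the counting was not stated. By contrast, Psmb6 read 111, 119, 184 and 170.3 CPM in Dll1- and 114, 130.0, 169 and 175 CPM in Dll1+ cells, and was lower only in mouse 3. Its log2 fold change was 0.02 ± 0.06 (adjusted p = 0.847), so that the 2 groups differed by less than their spread. The difference between Psmb6 and the other catalytic genes was not tested. Psmb3, a structural beta subunit, changed by -0.24 ± 0.06 (adjusted p = 0.0442), and Psmb1, Psmb2 and Psmb4 had estimates of -0.09, -0.15 and -0.16 that missed the threshold. Psmb11, with fewer than 1 CPM in every library, had an SE of 0.23 around its estimate of 0.25.

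The ATPase ring had the most members past the threshold, 4 of 6. Psmc2, which had the lowest p of all 39 genes, read 83.8, 78.9, 137 and 116 CPM in Dll1- cells of mice 1 to 4 and 63.3, 65.1, 104 and 99.9 CPM in Dll1+ cells. In each mouse the Dll1+ library was the lower one. The log2 fold change was -0.32 ± 0.06 (adjusted p = 0.0209), and the mRNA fell by 20.1%. Psmc4 read 89.5, 80.2, 144 and 128 CPM in Dll1- and 70.5, 65.5, 119 and 113 CPM in Dll1+ cells and changed by -0.27 ± 0.05 (adjusted p = 0.0284). Psmc1 and Psmc3 changed by -0.29 ± 0.06 and -0.26 ± 0.06 (adjusted p = 0.0314 and 0.0366). Psmc3 overlaps Slc39a13 on the opposite strand. Psmc5 was at -0.19 ± 0.06 (adjusted p = 0.0882) and lower in 4 of 4 mice. Psmc6 stood apart from its ring at -0.05 ± 0.08 (adjusted p = 0.731), higher in mouse 4 and lower in the others. The summed level of the ring changed by -18.1%, -15.1%, -17.1% and -8.65% in mice 1 to 4.

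Psmd1 and Psmd2 are the large scaffolds of the base, and Psmd2 is a docking site for shuttle proteins. Psmd2, the subunit mRNA with the highest mean CPM, read 268, 233, 323 and 263 CPM in Dll1- and 189, 191, 241 and 228 CPM in Dll1+ cells and changed by -0.36 ± 0.07 on the log2 scale (adjusted p = 0.0308). Psmd1 changed by -0.25 ± 0.05 (adjusted p = 0.0345). Psmd4, a receptor for ubiquitin chains, read 106, 100.3, 148 and 139 CPM in Dll1- and 88.9, 90.8, 138 and 144 CPM in Dll1+ cells. It was lower in mice 1 to 3 and not in mouse 4, and its change of -0.11 ± 0.07 did not pass the test (adjusted p = 0.289).

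None of the 8 lid genes passed the test. At an unadjusted p under 0.05 were 5 of 8, and DESeq2 called 5 of 8 lower. Of all 18322 genes, 5936 were under that p in either direction, and DESeq2 called 12.2% lower. Their median log2 fold change, -0.18, was under that of the alpha ring (-0.15) and the beta ring (-0.15), and all 8 estimates were negative. Psmd7, the lid subunit with the lowest p, read 104, 91.9, 146 and 121 CPM in Dll1- and 81.9, 83.7, 116 and 112 CPM in Dll1+ cells and stood at -0.24 ± 0.06 (adjusted p = 0.0624). Psmd14, the metalloprotease that pairs with Psmd7 and cuts ubiquitin from the substrate, read 63.2, 63.3, 88.5 and 81.8 CPM in Dll1- and 56.8, 50.7, 71.7 and 79.7 CPM in Dll1+ cells. It was lower in 4 of 4 mice, by 0.04 log2 units in mouse 4, and stood at -0.20 ± 0.07 (adjusted p = 0.0932). Psmd13 holds a processed pseudogene on its own strand to which 26219 counts were assigned, against 37011 for Psmd13, so its level is uncertain. A count of 12 in one set of roles and 0 in the lid does not show that the roles differ, and that difference was not tested.

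The base chaperones and the activators gave no call, with 1 of 3 and 1 of 4 at an unadjusted p under 0.05, and 0 and 1 by DESeq2. As 5936 of all 18322 genes were under that p and DESeq2 called 12.2% lower, these counts are no result about either role. Psmd9, the chaperone with the lowest p, was at -0.15 ± 0.06 (adjusted p = 0.143) and read 28.5, 26.7, 36.7 and 35.8 CPM in Dll1- and 23.8, 24.8, 32.6 and 33.9 CPM in Dll1+ cells. Psme1 and Psme2 form the activator ring that interferon gamma induces and that serves antigen presentation. Psme1 read 105, 104, 159 and 142 CPM in Dll1- and 108, 124, 163 and 162 CPM in Dll1+ cells, higher in all 4 mice, with an estimate of 0.13 ± 0.06 (adjusted p = 0.202). Psme2 read 76.0, 75.1, 129.6 and 115 CPM in Dll1- and 73.3, 78.0, 126 and 117 CPM in Dll1+ cells, and its estimate was -0.00 ± 0.05 (adjusted p = 0.966). Within every mouse the 2 Psme2 values lay close together. Psme3, the activator of the nucleus, read 100.5, 98.5, 107 and 106 CPM in Dll1- and 83.6, 91.0, 82.8 and 94.4 CPM in Dll1+ cells. Lower in 4 of 4 mice, it was at -0.23 ± 0.06 (adjusted p = 0.0595). Psme4, an activator that favors acetylated histones, read 200.2, 189, 158 and 144 CPM in Dll1- and 163, 151, 153 and 150.4 CPM in Dll1+ cells, and was at -0.15 ± 0.08 (adjusted p = 0.263). Its Dll1+ library was the lower one in mice 1, 2 and 3.

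Cell-state markers were read as well, and their lists differed in direction. All 7 of 7 cell cycle genes (Mki67, Top2a, Ccnb1, Cdk1, Mcm2, Mcm5 and Pcna) were lower in Dll1+ cells, beside 7.04% of all genes. The median log2 fold change of these genes was -1.15. Their summed level lay between 552 and 876 CPM in Dll1- cells and between 251 and 455 CPM in Dll1+ cells, and mouse 4 had the smallest difference in these genes too. Of 10 immediate-early and dissociation genes, 5 were higher in Dll1+ cells (12714 to 22698 CPM summed in Dll1- and 19589 to 31704 CPM in Dll1+ cells). Of 5 basal epithelial genes, 1 was higher (95.9 to 624 CPM in Dll1- and 165 to 1432 CPM in Dll1+ cells). As 6.98% of all genes were higher, that 1 call is no result about the basal list. No listed marker was at 0 in a library. The part of these genes in the subunit result was not tested. Stromal genes differed in mice 3 and 4, where the 6 fibroblast genes summed to 7426 and 21349 CPM in Dll1- and 2978 and 3231 CPM in Dll1+ cells. In mice 1 and 2 they summed to 1070 and 1218 CPM in Dll1- and 984 and 1132 CPM in Dll1+ cells. The part of the stromal genes in the subunit result was not tested either.

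**Figure D3:**
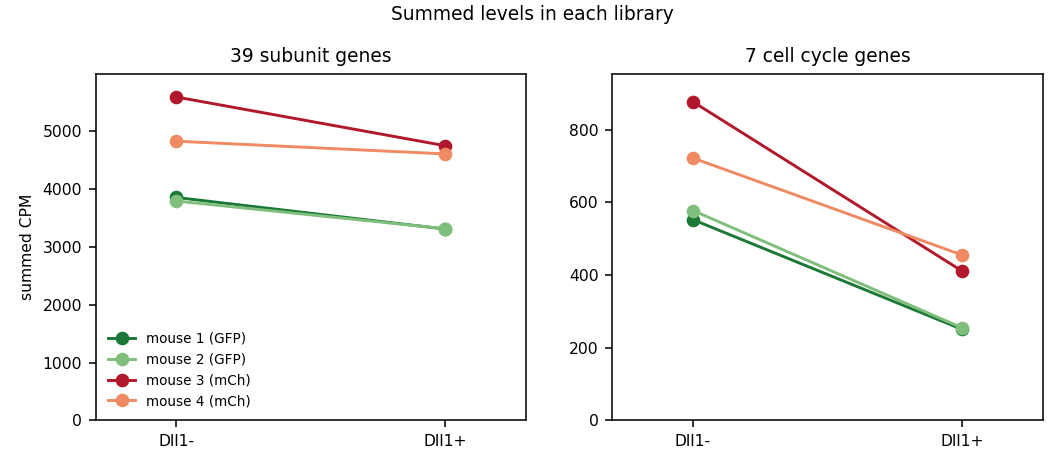
Summed CPM of the 39 subunit genes (left) and of the 7 cell cycle genes (right) in the Dll1- and Dll1+ library of each mouse, with lines joining libraries of 1 mouse. Both sums were lower in the Dll1+ library of all 4 mice, and mouse 4 had the shallowest line in both panels.

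The calls rest on mice 1, 2 and 3. No subunit passed the test without mouse 1, without mouse 2 or without mouse 3, when 0.932%, 1.97% and 1.17% of all genes were called lower, and 11 passed without mouse 4, of which 10 were among the 12. Of all genes, 7.43% were called lower without mouse 4. DESeq2 called 20 subunits lower, beside 12.2% of all genes. The fit without the mouse block called 3, beside 4.18% of all genes. The estimates of all 12 genes stayed negative under each of these settings.

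Each reporter was then looked at by itself, in a fit with a separate Dll1 effect for each. In PyMT-Dll1GFP mice 2 of 39 genes were lower in Dll1+ cells, Psma7 (-0.51 ± 0.09, adjusted p = 0.0239) and Psmc1 (-0.36 ± 0.08, adjusted p = 0.0410), beside 4.84% of all genes. None was higher, at an unadjusted p under 0.05 or by DESeq2 either, beside 4.29% of all genes. The median of the 39 was -0.19. In PyMT-Dll1mCh mice 0 of 39 passed the test by edgeR, beside 6.25% of all genes, and the median was -0.14. At an unadjusted p under 0.05 were 16 of 39, beside 5539 of all 18322 genes in either direction, and DESeq2 called 3. None was higher there by any of these measures, beside 5.51% of all genes. For the difference between reporters, mCh minus GFP, 0 of 39 passed by edgeR or DESeq2. By edgeR 0.00546% of all genes were called higher and 0.0655% lower. At an unadjusted p under 0.05 was 1 of 39, beside 2420 of all 18322 genes. The single-gene differences ran from -0.15 to 0.32 with a median of 0.04, and their SE was 0.10 or more. Psme4 was the gene under that unadjusted p. It was at -0.31 ± 0.08 in PyMT-Dll1GFP and 0.01 ± 0.08 in PyMT-Dll1mCh mice, a difference of 0.32 ± 0.11 (adjusted p = 0.296). With 2 mice for each reporter, differences of that size could not be told from the spread. Calls in PyMT-Dll1GFP mice ranged from 0 to 7 when another mouse was left out, 7 without mouse 3 or mouse 4 and 0 without mouse 1 or mouse 2.

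Subunit mRNAs also differed between mice of the 2 reporters, and by more than between Dll1+ and Dll1- cells. In Dll1- cells 29 of 39 genes were higher in PyMT-Dll1mCh than in PyMT-Dll1GFP mice and 1, Psme4, was lower, beside 18.7% of all genes higher and 17.9% lower. The median log2 fold change was 0.48, a rise of 39.2%. In Dll1+ cells 29 of 39 were higher and 0 lower, beside 15.2% and 15.4% of all genes, and the median was 0.52, a rise of 43.7%. Of these, 28 genes were higher in both. The comparisons share the same 4 mice, so that 1 does not replicate the other. Both were tested by edgeR on the means of the 4 groups, with no mouse block, so the libraries of 1 mouse counted as independent. With each Dll1 status fitted alone, 20 were higher in Dll1- and 25 in Dll1+ cells, beside 13.6% and 12.1% of all genes. In Dll1+ cells no subunit was lower with the mCh reporter by DESeq2 either, with 0 at an unadjusted p under 0.05. For 32 of the 39 genes all 4 libraries of mice 3 and 4 lay above all 4 libraries of mice 1 and 2, as they did for 21.5% of all genes. The 7 genes whose libraries overlapped were Psmb11, Psmc6, Psmd1, Psmd2, Psmd5, Psme3 and Psme4.

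**Figure D4:**
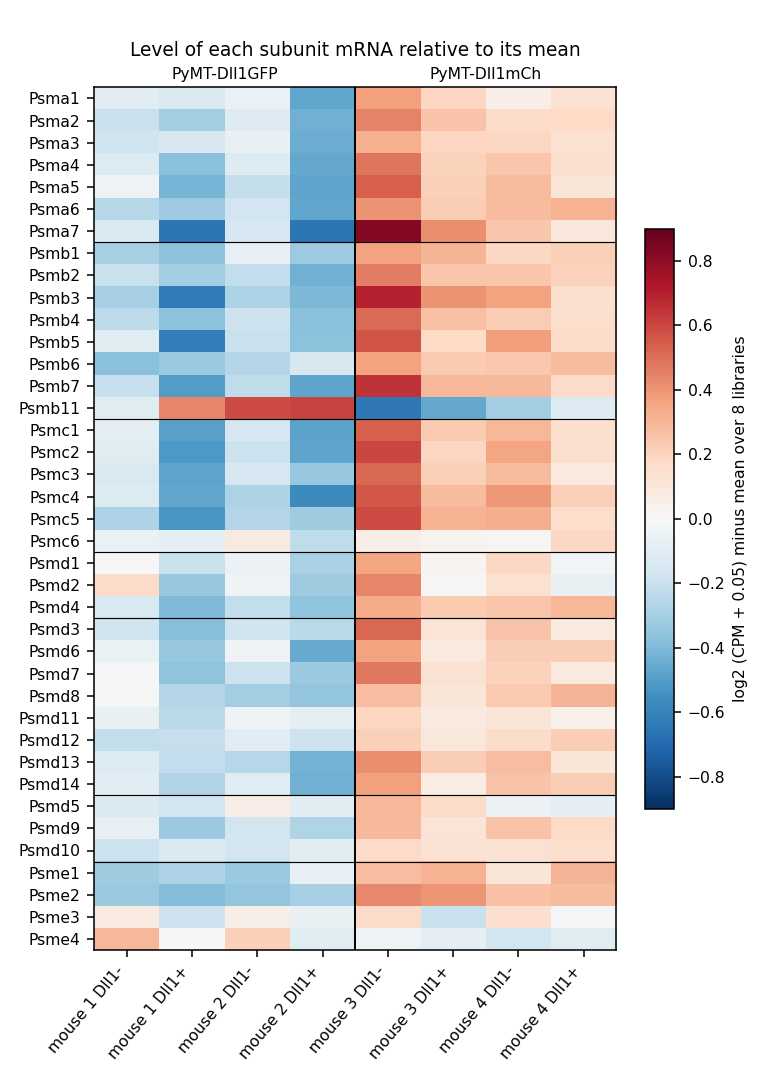
Log2 level of each subunit mRNA in each of the 8 libraries, minus its own mean over the libraries (CPM + 0.05), grouped by role. The 4 PyMT-Dll1mCh libraries on the right are above the mean (red) for most genes, with mouse 3 Dll1- the strongest, and Dll1+ libraries are paler or bluer than their Dll1- partner; Psmb11 and Psme4 run the other way between reporters.

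Psme2 and Psmc4 were among the 3 genes with the lowest p in both comparisons, joined by Psmc2 in Dll1- and Psmd4 in Dll1+ cells. In Dll1- cells Psme2 was 1.62-fold higher (log2 fold change 0.70 ± 0.10, adjusted p = 0.00324) and in Dll1+ cells 1.61-fold higher (0.68 ± 0.10, adjusted p = 0.00577). Its 4 values in mice 1 and 2 lay between 73.3 and 78.0 CPM, and those in mice 3 and 4 between 115 and 130 CPM. Psmc4 was higher by 0.68 ± 0.11 and 0.77 ± 0.11 on the log2 scale (adjusted p = 0.00433 and 0.00525). Psmc2 was higher by 0.63 ± 0.11 in Dll1- cells (adjusted p = 0.00542), and Psmd4 by 0.65 ± 0.09 in Dll1+ cells (adjusted p = 0.00518). Psmb6, with an estimate near 0 between Dll1+ and Dll1- cells, was higher with the mCh reporter by 0.62 ± 0.11 in Dll1- and 0.50 ± 0.11 in Dll1+ cells (adjusted p = 0.00568 and 0.0160).

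By role, 5 of 7 alpha genes, 7 of 8 beta genes, 5 of 6 ATPases, 1 of 3 base non-ATPases, 7 of 8 lid genes, 2 of 3 chaperones and 2 of 4 activators were higher in Dll1- cells. The counts in Dll1+ cells were 6, 7, 5, 1, 7, 1 and 2. As 18.7% of all genes were higher in Dll1- and 15.2% in Dll1+ cells, a count of 1 is no result about a role. Psme3 was at 0.10 ± 0.10 and 0.02 ± 0.10, and Psme4 at -0.37 ± 0.10 (adjusted p = 0.0249) and -0.05 ± 0.10 (adjusted p = 0.730) in Dll1- and Dll1+ cells. Neither was higher with the mCh reporter by the test in either kind of cell, and the sign of the Psme3 estimate in Dll1+ cells turned under RLE scaling and under TMM factors taken without the subunits. Of the 12 subunits that were lower in Dll1+ cells, 10 were higher with the mCh reporter in both kinds of cell, and Psmd1 and Psmd2 were not past the threshold in either.

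Each mouse carried 1 reporter, so that the reporter, the mouse and any difference in handling cannot be told apart. The Dll1- library of mouse 3, the deepest, held the highest value among the 4 Dll1- libraries for 36 of 39 genes. The share of all genes highest in that library was not counted, so this number is no result about the subunits. Without mouse 3 the genes called higher in Dll1- cells were 23 and the median 0.38, and without mouse 4 they were 34 and 0.64. Without either PyMT-Dll1GFP mouse no gene of the whole table passed in either comparison. The stromal lists were higher in PyMT-Dll1mCh mice as well. Beside the counts that follow, 18.7% of all genes were higher in Dll1- cells, and 15.2% were higher and 15.4% lower in Dll1+ cells. With those shares, 1 or 2 calls in a list are no result about it. In Dll1- cells all 6 of 6 fibroblast and 5 of 5 endothelial genes were higher, as were 5 of 5 immune genes tested, 4 of 5 pericyte and 4 of 5 erythroid genes, 2 of 5 basal genes and 5 of 7 cell cycle genes. In Dll1+ cells 4 of 6 fibroblast, 0 of 5 endothelial and 2 of 5 tested immune genes were higher, as were 4 of 5 pericyte genes, with 1 lower, 4 of 5 erythroid, 4 of 5 basal and 6 of 7 cell cycle genes. The immune genes summed to 61.1 to 75.5 CPM in mice 1 and 2 and to 317 to 355 CPM in mice 3 and 4 in Dll1- cells, and to 68.4 to 81.9 CPM and 142 to 162 CPM in Dll1+ cells. The part of these genes in the subunit result was not tested.

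**Figure D5:**
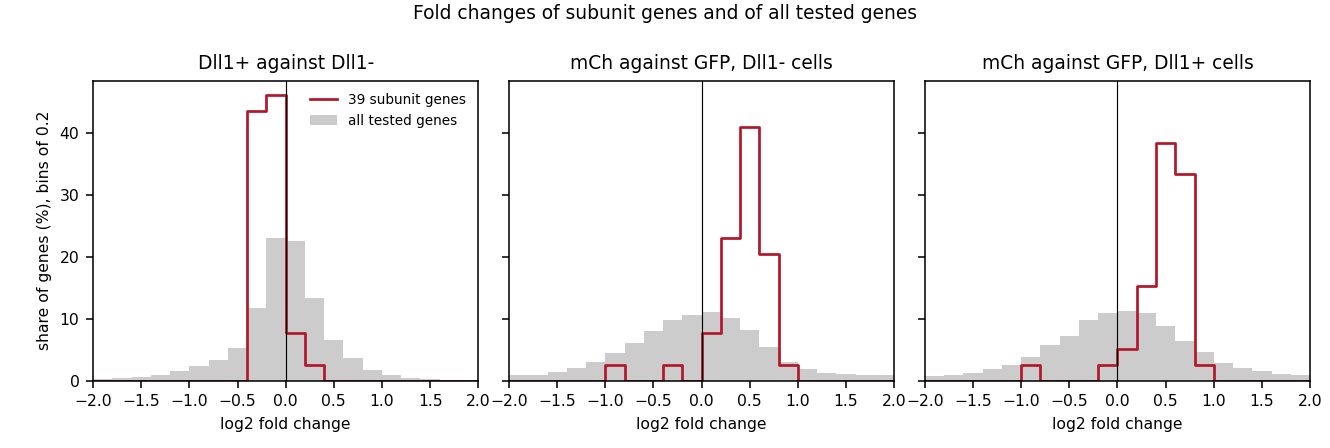
Share of genes (%) in bins of 0.2 log2 units for the 39 subunit genes (red line) and for all 18322 tested genes (grey bars), for Dll1+ against Dll1- cells and for mCh against GFP in Dll1- and in Dll1+ cells. The subunit genes sit just left of 0 in the first panel, with a median of -0.16, and right of it in the others, with medians of 0.48 and 0.52; genes beyond 2 log2 units are not drawn.

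Other genes of the pathway were read from lists of the immunoproteasome, assembly, associated proteins, gene regulation and ubiquitin. The 3 immunoproteasome genes replace the catalytic beta subunits in cells exposed to interferon. Over the 4 mice none passed the test between Dll1+ and Dll1- cells by edgeR or DESeq2, nor at an unadjusted p under 0.05. In PyMT-Dll1GFP mice 1 was higher at that p, beside 4900 of all 18322 genes in either direction. Psmb8, with the lowest p, read 49.6, 53.6, 99.8 and 71.0 CPM in Dll1- and 58.6, 59.1, 121 and 69.9 CPM in Dll1+ cells and was at 0.16 ± 0.07 (adjusted p = 0.161). Per kb, the ratio of the 3 immunoproteasome genes to their 3 constitutive counterparts was 0.206, 0.214, 0.256 and 0.209 in Dll1- cells of mice 1 to 4, and 0.268, 0.271, 0.343 and 0.202 in Dll1+ cells. It was thus higher in the Dll1+ library of 3 of 4 mice.

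Over the 4 mice, 1 of the 5 chaperones of the core was lower in Dll1+ cells, and all 5 estimates were negative. Of the 5, 4 were at an unadjusted p under 0.05, beside 5936 of all 18322 genes in either direction. As 7.04% of all genes were lower, 1 call in this list, or in the 2 that follow, is no result about the list. That gene was Pomp, which matures the beta ring. It read 92.8, 78.1, 151 and 109.6 CPM in Dll1- and 66.3, 67.7, 113 and 95.3 CPM in Dll1+ cells and changed by -0.33 ± 0.07 (adjusted p = 0.0338). Of 8 proteasome-associated genes 1 was lower, the deubiquitinase Uchl5 at -0.41 ± 0.10 (adjusted p = 0.0426). Of 6 genes of ubiquitin and its activating enzymes 1 was lower, Uba1, the main activating enzyme, at -0.32 ± 0.08 (adjusted p = 0.0499, just inside the threshold).

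Of 12 genes that regulate proteasome genes, 3 rose in Dll1+ cells and 0 fell by edgeR, beside 6.98% of all genes higher and 7.04% lower. At an unadjusted p under 0.05, 4 were higher and 2 lower, beside 5936 of all 18322 genes in either direction. DESeq2 called 4 higher and 2 lower. The 3 called by edgeR were the small Maf genes. Maff read 72.5, 70.6, 66.5 and 93.5 CPM in Dll1- cells of mice 1 to 4 and 92.6, 104, 90.4 and 137 CPM in Dll1+ cells. It rose in each of the 4 mice, by 0.48 ± 0.06 on the log2 scale (adjusted p = 0.00914). Mafg and Mafk rose by 0.41 ± 0.06 and 0.41 ± 0.06 (adjusted p = 0.0126 and 0.0149), also in 4 of 4 mice. Small Maf proteins lack an activation domain and act through partners. Nfe2l1, their partner on proteasome genes and the transcription factor named above, was at 0.19 ± 0.07 and did not pass the test by edgeR (adjusted p = 0.116). DESeq2 called it higher (adjusted p = 0.00961), and over the other alternatives its adjusted p ran from 0.0964 to 0.325.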

How the data were processed

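Total RNA of the 8 sorted libraries was sequenced from a TruSeq stranded preparation. Reads were quantified by the authors with salmon on transcripts of GENCODE M20 (GRCm38.p6) and brought to gene level by tximport. The deposited values are estimated counts as whole numbers, 1 column for each library and without normalization. The salmon version and its strand setting were not given in the sources used here. Total counts ran from 27301396 to 123907626.

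Symbols, gene types, positions and transcript lengths were taken from the GENCODE M21 annotation of GRCm38, which held 53668 of the 53697 gene identifiers. The tests were run in R 4.3.3 by edgeR 4.0.16 (TMM, filterByExpr on Dll1 status, robust quasi-likelihood F test), with p-values adjusted by Benjamini-Hochberg over 18322 genes and a threshold of 0.05. The first model held Dll1 status and the mouse, after the 2-factor model of the study's methods, the second held the mouse and a Dll1 effect for each reporter, and the third held the 4 group means. The mouse named in the labels gave the pairs, and the deviations of the paired libraries from their group means correlated at -0.05 in PyMT-Dll1GFP and 0.55 in PyMT-Dll1mCh mice. SE is the log2 fold change divided by the square root of its F statistic. For log2 CPM in single libraries the prior count was 2. The fits were also run on simulated counts drawn independently for each library, which cannot check how the pairing by mouse was handled. Alternatives were RLE scaling, DESeq2 1.42.0, other filters, TMM factors taken without the subunits, fits with or without the block or on 1 reporter or 1 Dll1 status, and leaving out each mouse. They also included a prior count of 0.5 and the union of exons as length.

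The subunits, lists, motifs and tests were chosen with earlier results of these data known. Genes were named by role (the catalytic subunits, Psmd4, Psmd14 and the activators), by the lowest p in each role, by passing the first test, by the 3 lowest p in each comparison of reporters, by the highest and lowest level per kb and, in each pathway list, by up to 3 calls or else the lowest p. Nfe2l1, Nfe2l3, Ube3c, Ecpas and Ddi2 were named outside this rule, after their values were seen, and the base chaperone Paaf1 was not analysed here. Some genes of the pathway lists are not reported here.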

Additional observations from a re-analysis of the deposited data

Results flagged for a closer look

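The median log2 difference of the 39 subunit genes between Dll1+ and Dll1- cells was -0.0626 in mouse 4, a PyMT-Dll1mCh mouse, which lay apart from -0.21, -0.19 and -0.21 in mice 1 to 3. The gap took 0.858 of the range of the 4 values, beyond Dixon's 95% critical value for 4 samples. In mouse 4 the subunits were still lower in Dll1+ cells in 25 of 39 cases, against 45.0% of all tested genes. The 7 cell cycle genes also differed least in this mouse, by a median of -0.80 on the log2 scale against -1.11, -1.33 and -1.17 in mice 1 to 3. Of 42 sets of 4 values examined this was the 1 so marked, and about 1 in 20 is marked by chance.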

How the results depend on the processing

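Leaving out 1 mouse moved the calls most. The subunits called lower over the 4 mice then ranged from 0 (without mouse 1, mouse 2 or mouse 3) to 11, and their median from -0.21 to -0.15. In PyMT-Dll1GFP mice the calls ranged from 0 to 7 and the median from -0.20 to -0.18, and the median difference between reporters ranged from -0.0789 (without mouse 4) to 0.0904. Subunits called higher with the mCh reporter ranged from 0 to 34 in Dll1- cells, with a median of 0.38 to 0.64, and from 0 to 27 in Dll1+ cells, 0 without mouse 1 or mouse 2 in both. Where such a fit left 1 mouse for a reporter, that mouse was assumed to vary like the others. DESeq2 called 20 subunits lower over the 4 mice, beside 12.2% of all genes, and 5 in PyMT-Dll1GFP and 3 in PyMT-Dll1mCh mice. Without the replicate block, that is without pairing by mouse, 3 and 0 were called over the 4 mice and in PyMT-Dll1GFP mice. Of all genes, 4.18% were then called lower over the 4 mice. With a replicate block in the reporter comparisons, 28 and 30 were higher in Dll1- and Dll1+ cells, beside 19% and 16.1% of all genes. In PyMT-Dll1GFP mice 6 were called without a filter, 7 with at least 10 counts in every library and 7 with the reporter fitted alone, and the median was -0.17 with RLE or DESeq2. In PyMT-Dll1mCh mice 3 were called without a filter, 1 with at least 10 counts in every library and 1 with TMM factors taken without the subunits. Estimates near 0 changed sign. Psmb6 ran from -0.0112 to 0.0690 and Psme2 from -0.0195 to 0.0150 over the 4 mice when a mouse was left out. Psme3 in Dll1+ cells, mCh against GFP, ran from -0.0702 to 0.0775, and was at -0.00162 with RLE, -0.00209 with DESeq2, -0.0196 with TMM factors taken without the subunits and -0.0155 with Dll1 status fitted alone. The cause of these changes was not tested. Other counts stayed within 1.5 times, and other medians within the spread between mice. That bound takes in some losses. Without a filter on low counts 8 rather than 12 subunits were called lower over the 4 mice, beside 3.78% of the genes then tested. With Dll1 status fitted alone, 20 and 25 were higher with the mCh reporter in Dll1- and Dll1+ cells, against 29 and 29.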

Other observations

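Nfe2l3, a relative of Nfe2l1, had values in opposite directions with the 2 reporters. It read 15.8 and 14.5 CPM in Dll1- and 10.5 and 7.63 CPM in Dll1+ cells of mice 1 and 2, and 11.9 and 11.5 CPM in Dll1- and 16.2 and 16.3 CPM in Dll1+ cells of mice 3 and 4. Its log2 fold change was -0.76 ± 0.14 in PyMT-Dll1GFP (SE; adjusted p = 0.0238, edgeR) and 0.47 ± 0.13 in PyMT-Dll1mCh mice (adjusted p = 0.0698), and the difference of 1.23 ± 0.19 did not pass the test by edgeR (adjusted p = 0.0872). DESeq2 called this difference (adjusted p = 0.00355), as did edgeR without a filter on low counts (adjusted p = 3.93e-05), while the adjusted p reached 0.398 without the mouse block. The ubiquitin ligase Ube3c and the adaptor Ecpas were at -0.16 ± 0.05 and 0.03 ± 0.06 between Dll1+ and Dll1- cells (adjusted p = 0.0882 and 0.794). Ddi2, the protease that releases Nfe2l1, was lower with the mCh reporter in Dll1- cells (-0.74 ± 0.14, adjusted p = 0.00803) and in Dll1+ cells (-0.65 ± 0.14, adjusted p = 0.0160). All 4 genes were chosen after their values were seen.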
